A study of Mus musculus with 12 samples.

Results

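The genes of iron uptake, storage and export were followed in 9A1 and 14B3, 2 lines of bipotential mouse embryonic liver (BMEL) cells. BMEL cells are epithelial cells of fetal liver that can be led towards hepatocytes or bile duct cells, and both lines were isolated, independently, from livers of a CBA/J x C57Bl/6J cross at day 14 post coitum. The 9 genes were listed by symbol: Trf, Tfrc, Hamp, Slc40a1, Slc11a2, Cybrd1, Heph, Fth1 and Meltf. They were looked up among the 18193 genes that had a probe set of their own on Affymetrix whole-genome mouse arrays, and 8 of the 9 had one. Trf did not, because its probe set is annotated to Srprb as well. All 8 were among the 15781 genes tested, which means that their log2 level reached a floor of 5 on 2 or more arrays. Each line was grown in basal culture and as aggregates for 1 day and for 5 days, and each of the 6 combinations had 2 biological replicates, 12 arrays in all. The labels name no agent and no altered allele for any group, and each line is 1 isolate.

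Cells take up iron bound to the plasma carrier transferrin through the transferrin receptor, reduce it and move it out of endosomes through a divalent metal transporter, and keep what they do not use inside ferritin. The only known exporter is ferroportin, which works with a copper oxidase that turns ferrous into ferric iron, and which the liver hormone hepcidin removes from the membrane. The messages of the receptor, ferritin, ferroportin and one form of the metal transporter carry iron-responsive elements, hairpins that the iron regulatory proteins bind. Hepatocytes make transferrin and hepcidin and store iron in ferritin, while hephaestin and the duodenal reductase are best known from the absorptive epithelium of the gut.

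Levels are log2 probe set values from robust multi-array averaging (RMA), and a difference is given on the same scale with its standard error from limma, over the 4 arrays of a culture. The p-values are limma's, adjusted over all 15781 genes. A gene was called when its adjusted p was under 0.05. After 5 days of aggregate culture, 5 of the 8 genes were higher than in basal culture and 0 were lower. They were Tfrc, Slc40a1, Heph, Fth1 and Meltf. Among all genes tested 35.4% were called in this comparison, 16.9% higher and 18.5% lower. The median difference of the 8 genes was 0.72, against 0.01 over all genes. At 1 day 0 of the 8 were called against basal culture by limma, where 2 had an unadjusted p under 0.05 (Slc40a1 and Slc11a2) and the share called among all genes was 14.0%, with 5.25% higher and 8.80% lower. Between 1 day and 5 days 5 of the 8 were higher at 5 days and 0 were lower, namely Slc40a1, Slc11a2, Heph, Fth1 and Meltf, in a comparison that called 21.7% of all genes, 11.7% higher and 10.0% lower. The basal arrays serve in both comparisons with basal culture, and the 5 day arrays in both comparisons of 5 days, so these counts are not independent of each other. The members were chosen with earlier results of these data known, so the counts are no test of the iron genes as a set. Total RNA of whole cultures was measured, in which fewer cells of a type and less RNA per cell cannot be told apart.

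A pair of arrays stood apart from their groups. Basal 9A1 replicate 1 had a mean of 12.2 over 6 hepatocyte markers, against 8.72 on its replicate, and a mean of 10.5 over 6 markers of absorptive enterocytes, against 7.14 on its replicate. On day 1 9A1 replicate 2 the values were the least spread, at an SD of 2.13 over all probe sets against 2.25 or more elsewhere. It is named here by that spread alone. In some markers day 1 9A1 replicate 1 was the one unlike the other 1 day arrays, with Apoa1 at 9.19 against 12.3 to 12.5 and Fgb at 8.66 against 4.87 to 5.00. For Alb it was replicate 2, at 7.39 against 9.58 to 9.99. The arrays at 1 day had hepatocyte means of 10.3 to 10.9 and enterocyte means of 9.19 to 10.1. At 5 days the means were 12.4 to 13.5 and 11.8 to 12.6, above every basal array. Genes of proliferation went the other way, with means of 5.56 to 8.14 at 5 days against 10.7 to 11.8 in basal culture. The mean over 4 biliary markers ranged from 10.6 to 11.4 at 5 days and from 10.1 to 10.9 in basal culture. Within it Epcam had 12.9 to 13.2 at 5 days against 6.86 to 12.6 in basal culture, whereas Krt7 had 9.61 to 11.1 against 10.7 to 12.7. Markers of erythroid cells, which are rich in transferrin receptor, had means of 5.17 to 5.64 on all 12 arrays, with Rhag and Hba-a1 under the floor of 5 throughout, Epor at 6.68 to 7.63 and Klf1 at 5.86 to 7.12. The mean over 7 macrophage markers was 5.59 to 6.16 at 5 days and 5.36 to 5.65 in basal culture. Of these, Ptprc and Cd163 were under 5 on every array, Csf1r had 9.53 to 12.0 at 5 days against 7.65 to 9.17 in basal culture, and Cd68 had 5.85 to 6.39 against 6.95 to 8.13. The part of these markers in the results was not tested.

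**Figure D1:**
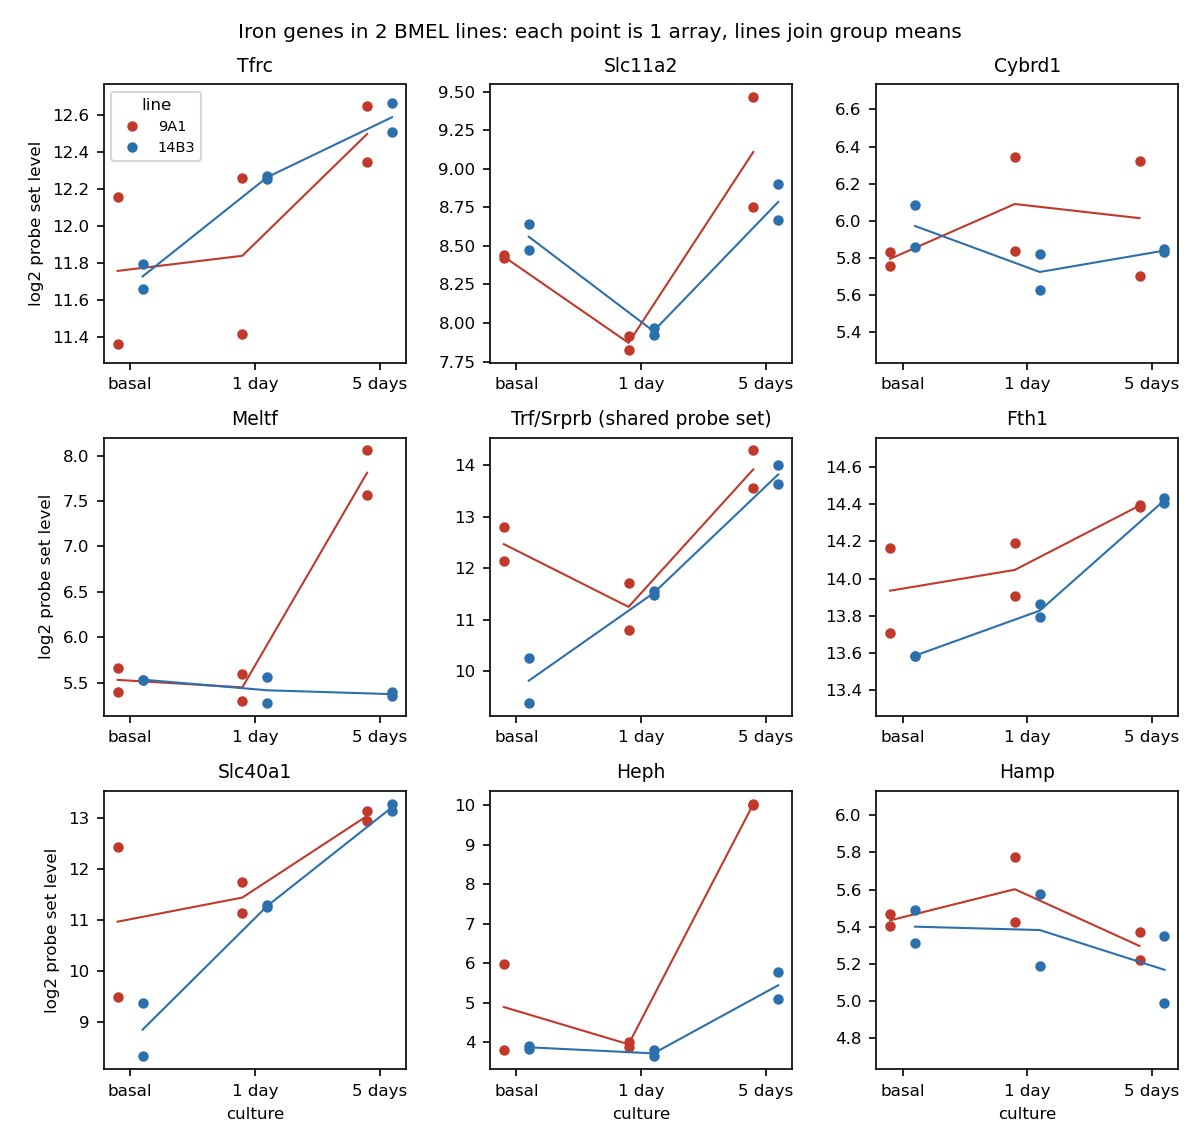
Log2 probe set level (vertical axes, each with its own range) of the 9 iron genes in the basal culture and after 1 and 5 days of aggregate culture (horizontal axes); each point is 1 array, red for 9A1 and blue for 14B3, and lines join the group means. Slc40a1 reaches 12.9 to 13.3 on all 4 arrays at 5 days, whereas Heph and Meltf are high at 5 days in 9A1 and far lower in 14B3.

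Transferrin itself, the carrier that hepatocytes secrete, could not be read alone. The probe set shared by Trf and Srprb, a subunit of the receptor of the signal recognition particle, had 12.80 and 12.13 in basal 9A1 culture, 11.70 and 10.79 at 1 day and 14.29 and 13.55 at 5 days. In 14B3 the same probe set had 9.37 and 10.25 in basal culture, 11.56 and 11.47 at 1 day and 14.00 and 13.63 at 5 days. The 4 arrays at 5 days lay above the other 8, and in basal culture both 9A1 arrays lay above both 14B3 arrays. Relative to basal culture the 5 day mean was higher by 1.45 in 9A1 and by 4.01 in 14B3, while at 1 day the 9A1 mean differed by -1.22 and the 14B3 mean by 1.70. Because the probe set names a pair of genes, these values are assigned to neither, and it was left out of the tests over genes. In limma over probe sets it was called higher at 5 days than in basal culture, by 2.73 ± 0.28 (adjusted p = 0.000185). It was also called higher than at 1 day, by 2.49 ± 0.28 (adjusted p = 0.000696). Not called were the 1 day difference from basal culture, 0.24 ± 0.28 (adjusted p = 0.661), and the basal difference between the lines, 2.65 ± 0.40 (adjusted p = 0.138).

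Tfrc encodes the transferrin receptor, which carries iron-loaded transferrin into the cell, and lies on chromosome 16 (GRCm38.p6 chr16:32608896-32632794). In 9A1 its level was 12.15 and 11.36 in basal culture, 11.42 and 12.26 at 1 day, and 12.34 and 12.65 at 5 days. In 14B3 it was 11.80 and 11.66 in basal culture, 12.27 and 12.25 at 1 day and 12.66 and 12.51 at 5 days. All 4 arrays at 5 days lay above all 4 basal arrays, although the margin over basal 9A1 replicate 1 was small, and 1 day 9A1 replicate 1 lay among the basal arrays. Tfrc was 1.74-fold higher at 5 days than in basal culture, by 0.80 ± 0.21 (adjusted p = 0.0164). The call was lost when basal 14B3 replicate 2 (adjusted p = 0.0561), 9A1 replicate 2 of 5 days (0.063) or 14B3 replicate 1 of 5 days (0.0585) was left out, and was kept, at 1.00, without basal 9A1 replicate 1. Against basal culture the 1 day difference was 0.31 ± 0.21 (adjusted p = 0.433), and 5 days differed from 1 day by 0.49 ± 0.21 (adjusted p = 0.144). The response at 5 days was 0.74 in 9A1 and 0.86 in 14B3, and the interaction between line and culture was not called (-0.12 ± 0.43, adjusted p = 1).

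Tfrc is also printed on these arrays as a set of 3 control probe sets that read the 5′ end, the middle and the 3′ end of the transcript. All 3 were higher on each array at 5 days than on any basal array. The 3′ probe set had 9.78, 10.36, 10.13 and 10.04 at 5 days, against 9.56, 9.11, 9.37 and 9.25 in basal culture. For the 5′ probe set the values were 8.78, 9.49, 8.78 and 9.00 at 5 days, against 8.49, 7.96, 7.89 and 8.13 in basal culture. The other ordinary probe sets of Tfrc differed between 5 days and basal culture by 1.00 ± 0.28 and 0.96 ± 0.20. At 1 day they differed from basal culture by 0.30 ± 0.28 and -0.17 ± 0.20, so the sign was not shared. Between 1 day and 5 days they differed by 0.71 ± 0.28 and 1.13 ± 0.20. In limma over probe sets only the latter difference was called (adjusted p = 0.119 and 0.00498). The 3′ level exceeded the 5′ level by 0.87 to 1.35 at 5 days and by 1.07 to 1.47 in basal culture. This gap was widest, at 1.88, on day 1 9A1 replicate 2, the array with the narrow spread of values, and its part in the 1 day values was not tested.

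**Figure D2:**
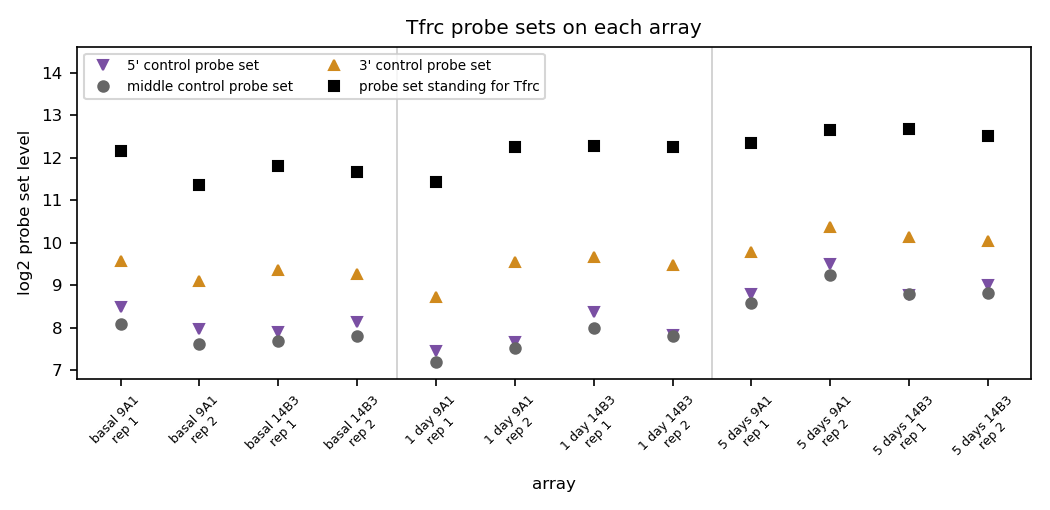
Log2 level (vertical axis) on each of the 12 arrays (horizontal axis, by culture, line and replicate) of the probe set that stands for Tfrc (black squares) and of the 3 control probe sets at the 5′ end, middle and 3′ end of its transcript. The 4 probe sets are all higher on each of the arrays at 5 days than on any basal array, and day 1 9A1 replicate 1 is low in all 4.

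The promoter of Tfrc is shown with that of Hamp because one encodes the main entrance for iron and the other the hormone that closes the exit, and Tfrc was called between cultures while Hamp was not. Both are the 250 bases before an annotated gene start, credited to RefSeq on GRCm38.p6, and capitals mark matches to the motifs searched. The window of Tfrc is chr16:32608646-32608895 on the plus strand and that of Hamp is chr7:30944030-30944279 on the minus strand.
Tfrc: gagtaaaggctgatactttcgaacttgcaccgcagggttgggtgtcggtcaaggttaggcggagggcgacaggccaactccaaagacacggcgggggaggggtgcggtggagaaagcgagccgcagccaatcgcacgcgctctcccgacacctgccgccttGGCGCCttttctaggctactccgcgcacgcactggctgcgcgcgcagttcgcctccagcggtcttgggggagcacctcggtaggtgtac
Hamp: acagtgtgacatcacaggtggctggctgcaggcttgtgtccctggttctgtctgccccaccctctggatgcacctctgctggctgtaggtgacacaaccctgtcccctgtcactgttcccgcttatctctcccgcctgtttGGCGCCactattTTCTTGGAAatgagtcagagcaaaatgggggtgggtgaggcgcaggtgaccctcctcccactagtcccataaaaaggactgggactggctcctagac
Promoter windows were found for 5 of the 9 genes (Tfrc, Hamp, Cybrd1, Fth1 and Meltf), 7 windows in all, and Trf, Slc40a1, Slc11a2 and Heph had no entry. Both strands were searched for ACGTG, the core bound by hypoxia-inducible factors, GGCGCC, the element through which BMP signals reach Hamp, and TTCNNNGAA, the element of STAT factors; the motifs do not overlap in the windows shown. In Hamp, GGCGCC began 109 bases and TTCNNNGAA 97 bases before the start. In Tfrc, GGCGCC began 89 bases before the start of the window shown, and ACGTG 228 bases before a start further downstream. Cybrd1 held GGCGCC 39 bases before its start, and the windows of Fth1 and Meltf held none of the 3. The Meltf window, one of the Fth1 windows and the Tfrc window with ACGTG precede a start inside the gene as mapped here, so they overlap it. That ACGTG lies across the mapped start of Tfrc. Of 32851 windows of this length, 16.6% held ACGTG, 9.59% GGCGCC and 7.02% TTCNNNGAA. A match is a description of letters and not a binding site.

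Slc11a2 encodes the divalent metal transporter DMT1, which takes ferrous iron out of the endosome and, in the gut, out of the lumen (chr15:100387898-100424209). Its level in 9A1 was 8.42 and 8.44 in basal culture, 7.92 and 7.83 at 1 day, and 8.75 and 9.46 at 5 days. In 14B3 it was 8.64 and 8.47 in basal culture, 7.97 and 7.92 at 1 day and 8.67 and 8.90 at 5 days. The 3 cultures did not overlap, with the 1 day arrays lowest and the 5 day arrays highest, and the gap between 5 days and basal culture was narrow. The difference between 5 days and 1 day was called, at 1.04 ± 0.17 or 2.05-fold (adjusted p = 0.00321). The difference of 1 day from basal culture, -0.59 ± 0.17, stood just past the threshold (adjusted p = 0.0503), and was called as lower without day 1 9A1 replicate 1 or without either day 5 9A1 array. At 5 days the difference from basal culture was 0.45 ± 0.17 (adjusted p = 0.0677), and it was called without day 5 9A1 replicate 1. The 1 day response was -0.56 in 9A1 and -0.61 in 14B3. The other 3 probe sets of Slc11a2 differed at 1 day from basal culture by -0.52 ± 0.22, -0.11 ± 0.16 and -0.17 ± 0.18. In limma over probe sets none of these was called (adjusted p = 0.169, 0.737 and 0.63), and -0.11 and -0.17 were smaller than their standard errors. At 5 days they differed from basal culture by 0.37 ± 0.22, 0.90 ± 0.16 and 0.57 ± 0.18. The differences of 0.90 and 0.57 were called in limma over probe sets (adjusted p = 0.0029 and 0.0403), and that of 0.37 was not (adjusted p = 0.261). The transcript has forms that differ at the 3′ end, and which form each probe set reads was not examined.

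Cybrd1 encodes duodenal cytochrome b, a reductase that makes ferrous iron at the surface of gut epithelium (chr2:71118054-71142926). Its level ranged from 5.63 to 6.34 over the 12 arrays, and the cultures overlapped. At 5 days it differed from basal culture by 0.04 ± 0.17 (adjusted p = 0.901, 95% confidence interval from -0.34 to 0.43). That interval is for the level of the probe set, and leaves room for a small change of it in either direction. The levels lay around the median of the arrays, which was 6.09 to 6.24. The part of background in them was not tested, so the interval does not bound the change of the message. A further probe set of Cybrd1 had 3.51 to 4.77, under the floor on every array.

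Iron storage was read through Fth1, the heavy chain of ferritin, which oxidises iron as it enters the shell (chr19:9980600-9985111). Its level in 9A1 was 14.16 and 13.70 in basal culture, 13.90 and 14.19 at 1 day and 14.40 and 14.39 at 5 days. In 14B3 it was 13.58 and 13.58 in basal culture, 13.79 and 13.86 at 1 day and 14.41 and 14.44 at 5 days. The 4 arrays at 5 days lay close together, above the other 8. Fth1 was 1.57-fold higher at 5 days than in basal culture, by 0.65 ± 0.10 (adjusted p = 0.00127), and higher than at 1 day by 0.47 ± 0.10 (adjusted p = 0.0113). At 1 day the difference from basal culture was 0.18 ± 0.10 (adjusted p = 0.328), which was called without basal 9A1 replicate 1, at 0.29 (adjusted p = 0.0207). A second probe set, with lower values, differed by 0.82 ± 0.12 between 5 days and basal culture. These values are close to the top of the array scale, where RMA levels are compressed, and a probe set of this gene can also read its processed copies. The response at 5 days was 0.46 in 9A1 and 0.84 in 14B3, with the higher basal level in 9A1 resting on replicate 1.

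Slc40a1 encodes ferroportin, the iron exporter (chr1:45908070-45926532). In 9A1 its level was 12.43 and 9.49 in basal culture, 11.14 and 11.74 at 1 day and 12.93 and 13.15 at 5 days. In 14B3 it was 8.32 and 9.37 in basal culture, 11.25 and 11.30 at 1 day and 13.14 and 13.28 at 5 days. With the exception of basal 9A1 replicate 1, which lay between the 1 day and the 5 day arrays, the cultures did not overlap. Slc40a1 was 9.32-fold higher at 5 days than in basal culture, by 3.22 ± 0.53 (adjusted p = 0.00166), and by 3.96 without basal 9A1 replicate 1 and 2.49 without basal 9A1 replicate 2. A second probe set gave 2.99 ± 0.50. The response at 5 days was 2.08 in 9A1, whose basal arrays were far apart, and 4.37 in 14B3. At 1 day it was 0.47 in 9A1 and 2.43 in 14B3. In 9A1 fitted alone the call at 5 days was lost (adjusted p = 0.3). The 5 day interaction between line and culture was -2.29 ± 1.07 and was not called (unadjusted p = 0.0607 by limma). At 1 day the difference from basal culture was 1.45 ± 0.53 and was not called (adjusted p = 0.112). Without basal 9A1 replicate 1 the 1 day difference was 2.19 and was called (adjusted p = 0.000437), and without basal 9A1 replicate 2 it was 0.72 (adjusted p = 0.0984). Between 1 day and 5 days the rise was 1.77 ± 0.53, or 3.41-fold (adjusted p = 0.0437). This call was lost in 15 of 24 alternatives, among them the omission of any array of 1 day or 5 days (adjusted p from 0.0585 to 0.127), at differences of 1.62 to 1.92.

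Heph encodes hephaestin, the membrane copper oxidase that loads iron leaving through ferroportin onto transferrin (chrX:96455436-96574485). Its level in 9A1 was 5.97 and 3.81 in basal culture, 3.88 and 4.01 at 1 day and 10.02 and 10.04 at 5 days. In 14B3 it was 3.91 and 3.83 in basal culture, 3.79 and 3.64 at 1 day and 5.79 and 5.09 at 5 days. At 1 day all 4 arrays lay under the floor of 5, as did 3 of the 4 basal arrays, so background limits the size of the differences, and the gene passed the filter mainly through its 5 day arrays. Against basal culture Heph was higher at 5 days by 3.36 ± 0.39, or 10.2-fold (adjusted p = 0.000292). It was higher than at 1 day by 3.90 ± 0.39 (adjusted p = 0.000392). Both calls were kept in all 24 alternatives. Heph has 1 probe set, so the alternatives with other probe set rules reread the same Heph values. Leaving out basal 9A1 replicate 1 gave 3.90 for the first difference and leaving out basal 9A1 replicate 2 gave 2.81. That mean joined unlike responses, 5.14 in 9A1 and 1.57 in 14B3.

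Hamp encodes hepcidin, which removes ferroportin from the membrane (chr7:30942368-30944029). Its level ran from 5.31 to 5.49 in basal culture, from 5.19 to 5.78 at 1 day and from 4.99 to 5.37 at 5 days, and the cultures overlapped. All 12 values were under the median of the arrays, which was 6.09 to 6.24. At 5 days Hamp differed from basal culture by -0.19 ± 0.14 (adjusted p = 0.395, 95% confidence interval from -0.51 to 0.14). The second probe set of Hamp had 4.96 to 5.47. On the same arrays at 5 days the hepatocyte marker albumin (Alb) had 14.2, 11.9, 13.6 and 12.0, against 13.1, 6.86, 6.20 and 5.57 in basal culture. The files hold no detection calls, so whether any hepcidin message was present is not shown by these values.

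**Figure D3:**
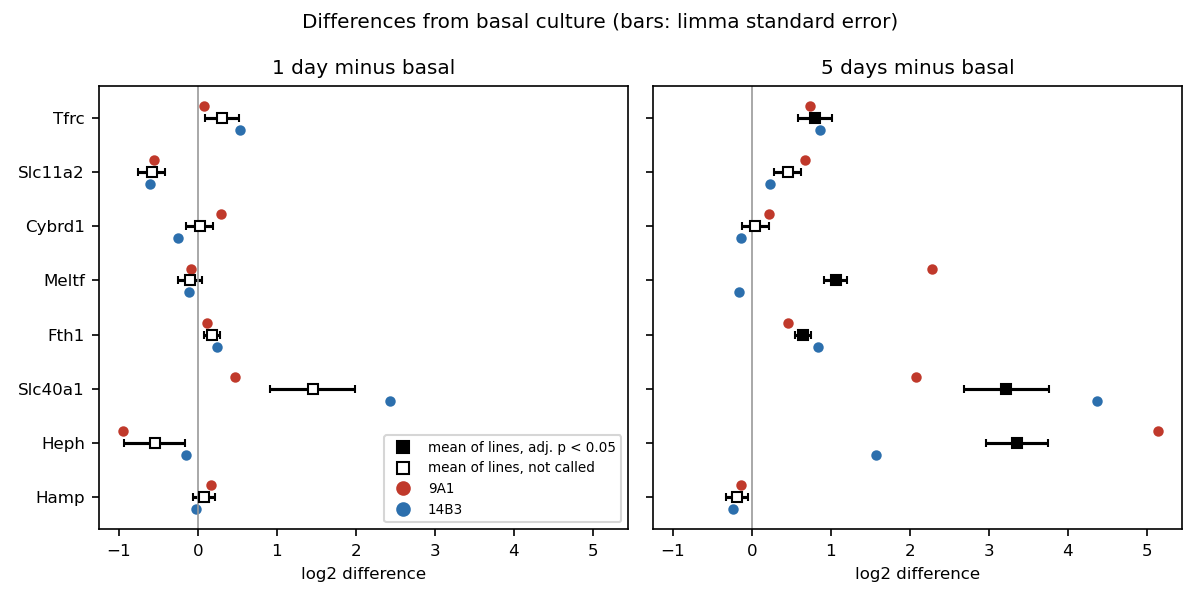
Differences in log2 level from basal culture (horizontal axes) at 1 day (left) and at 5 days (right) for the 8 tested genes, one row each; squares are the means over both lines with the limma standard error, filled where adjusted p was under 0.05, and circles are the responses of 9A1 (red) and 14B3 (blue). No square is filled at 1 day, and at 5 days those of Tfrc, Meltf, Fth1, Slc40a1 and Heph are.

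The lines were then compared. Meltf encodes melanotransferrin, a relative of transferrin anchored in the membrane, which binds iron but has no settled role in its uptake (chr16:31878629-31899020). In 9A1 its level was 5.40 and 5.66 in basal culture, 5.30 and 5.59 at 1 day and 8.06 and 7.56 at 5 days. In 14B3 it was 5.53 and 5.53 in basal culture, 5.27 and 5.56 at 1 day and 5.39 and 5.35 at 5 days. Both 9A1 arrays at 5 days stood above the other 10, which lay between 5.27 and 5.66 with the lines intermixed. At 5 days Meltf was 5.42-fold higher in 9A1 than in 14B3, by 2.44 ± 0.21 (adjusted p = 0.0021, 95% confidence interval from 1.96 to 2.91), and this call was kept in all 22 alternatives, with adjusted p up to 0.0423. The 14B3 values at 5 days lie under the median of their arrays, as do all basal and 1 day values of both lines. The size of the fold and that of the rise in 9A1 thus depend on background. It also limits what the likeness of the lines before 5 days can show. Meltf has 1 probe set, so the alternatives with other probe set rules reread the same Meltf values. In the basal and 1 day cultures the lines differed by -0.00 ± 0.21 (adjusted p = 1) and 0.03 ± 0.21 (adjusted p = 0.98). Averaged over the cultures 9A1 was higher by 0.82 ± 0.12 (adjusted p = 0.0346), a call lost in 10 of 22 alternatives, among them the omission of any 14B3 array or any 5 day array (adjusted p up to 0.2).

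The change of Meltf between basal culture and 5 days was 2.28 in 9A1 and -0.16 in 14B3. The interaction, which tests the difference between these changes, was 2.44 ± 0.30 (adjusted p = 0.0441). It was called in 9 of 22 alternatives and lost in 13, while its size stayed between 2.19 and 2.69 and its adjusted p ran from 0.00398 to 0.372. It was lost without basal 9A1 replicate 1 (adjusted p = 0.0661), without either 9A1 array of 5 days, without any array of 14B3, and in the fit with a replicate block (0.0846). The rise of 1.06 ± 0.15 in the mean over both lines at 5 days (adjusted p = 0.000716) thus averages unlike values, and in 14B3 fitted alone its sign was turned.

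Heph was the other gene of the 8 that differed between the lines at 5 days. It was 24.1-fold higher in 9A1 than in 14B3, by 4.59 ± 0.55 (adjusted p = 0.0101), a call lost when any 1 array of 5 days was left out (adjusted p up to 0.159). Both 14B3 values are close to the floor, and the size of the fold depends on background there. The interaction for Heph was 3.57 ± 0.78 and was not called (adjusted p = 0.454). Without basal 9A1 replicate 1 it was 4.65 (adjusted p = 0.00265) and without replicate 2 it was 2.49 (adjusted p = 0.00588). Both 14B3 arrays at 5 days, at 5.79 and 5.09, were above all basal 14B3 arrays, which were under the floor.

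In all, 2 of the 8 genes were called between 9A1 and 14B3 at 5 days, where 0.247% of all genes were. Averaged over the cultures 1 of the 8 was called, Meltf, against 0.272% of all genes. The members were chosen with earlier results of these data known, and Meltf was listed for the comparison of the lines. These counts are therefore no test of the iron genes as a set. In basal culture limma called 0 of the 8, with 2 at an unadjusted p under 0.05 (Slc40a1 and Fth1), and 0.0190% of all genes. Leaving out basal 9A1 replicate 2 meant that replicate 1 alone stood for 9A1 and its spread was taken from the other groups. The difference between the lines was then 3.59 for Slc40a1, 2.10 for Heph and 0.58 for Fth1. Without replicate 1 Slc40a1 differed by 0.65 and Fth1 by 0.12. The Heph level left in basal 9A1 was then 3.81, against 3.91 and 3.83 in 14B3. At 1 day the lines differed in 0 of the 8 genes by limma, 0 also at an unadjusted p under 0.05, and 0% of all genes were called. The interaction at 1 day called 0 of the 8, 0 also at an unadjusted p under 0.05, and 0% of all genes, and at 5 days it called 1 of the 8 and 0.0380% of all genes. The macrophage marker Csf1r, a growth factor receptor, was also high in 9A1 at 5 days, with 11.99 and 12.02 against 9.53 and 9.84 in 14B3, while Ptprc, the pan-leukocyte marker, had 4.66 and 4.67 in 9A1 against 4.54 and 4.63 in 14B3. The lactase gene Lct, an enterocyte marker, had 11.6 and 11.3 in 9A1 against 9.26 and 8.62 in 14B3 at 5 days. Among the other enterocyte markers Anpep had 10.9 and 11.4 in 9A1 against 9.69 and 10.6 in 14B3. Fabp2 had 14.07 and 14.09 against 13.89 and 13.84, and Vil1 had 12.71 and 12.96 against 12.67 and 12.68. The lines overlapped for Fabp1, at 14.67 and 14.66 against 14.69 and 14.62. They also overlapped for Cdx2, at 10.47 and 11.20 against 10.88 and 11.09. The part of these markers in the line difference was not tested.

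**Figure D4:**
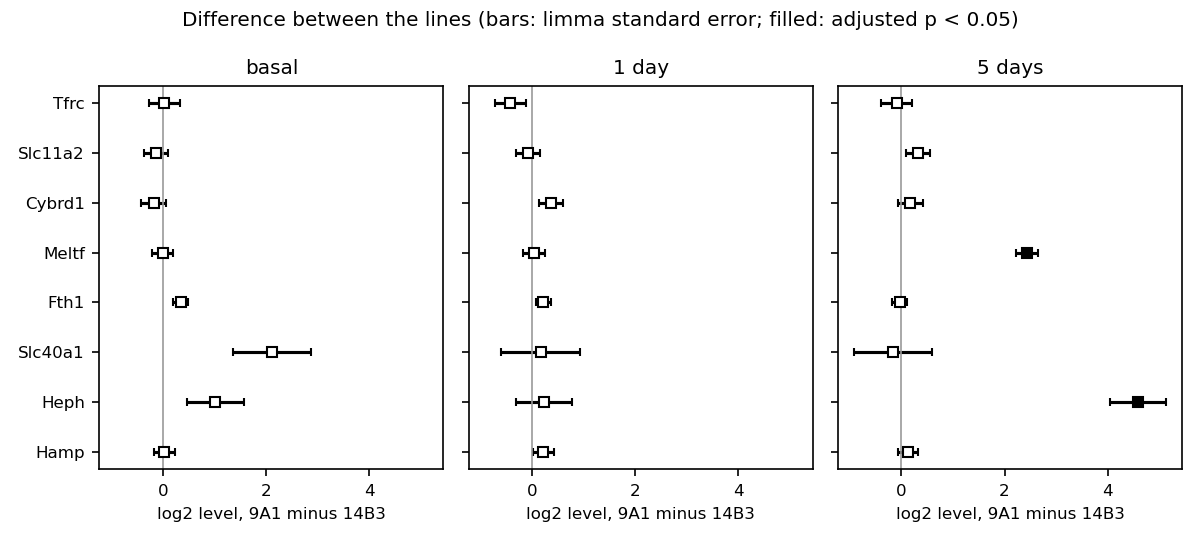
Log2 level in 9A1 minus that in 14B3 (horizontal axes) for the 8 tested genes, one row each, for the basal, 1 day and 5 day cultures (left to right), with the limma standard error as bars and filled squares where adjusted p was under 0.05. Meltf at 2.44 and Heph at 4.59, both at 5 days, are the filled squares, and the basal difference of Slc40a1, 2.12, is the largest of the open ones.

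Meltf and Tfrc lie on the same chromosome, 710 kb apart, with 16 tested genes between them. Of these 16, 0 differed between 9A1 and 14B3 at 5 days, with adjusted p = 1 for all, where 0.247% of all genes did, and 9 were called between 5 days and basal culture, where 35.4% of all genes were. Slc51a, a bile acid transporter subunit, was 3.82 higher at 5 days, and Pcyt1a, of phosphatidylcholine synthesis, was 2.79 higher. Zdhhc19, Cep19 and 0610012G03Rik were also higher, by 1.11, 0.60 and 0.41. Ncbp2, Fbxo45, Pak2 and Rnf168 were lower at 5 days, with differences of -1.58, -0.98, -0.72 and -0.59. The gene next to Meltf in this interval, Pigz, differed by 0.23 between 5 days and basal culture and was not called.

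The genes whose pattern was most like that of each were ranked by Pearson correlation over the 12 arrays among the 15781 genes, as a description in which the points share culture, line and array. For Meltf they were Tmem30b (r = 0.981), Fbp1 (0.978) and H2-Q2 (0.972). Tmem30b had 7.70 and 6.75 in 9A1 at 5 days and 4.47 and 4.24 in 14B3. For Tfrc they were Hkdc1 (r = 0.972), Msh5 (0.963) and Prkar2a (0.959). Hkdc1, a hexokinase relative, had 10.81, 10.77, 11.20 and 11.27 at 5 days, against 9.88, 7.01, 8.25 and 8.41 in basal culture. For Heph, added after its values were seen, they were Mfsd4b1 (r = 0.979), Ms4a6b (0.977) and Guca2b (0.977).

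The wider iron pathway was read through 7 further lists with 60 genes, of which 53 were tested. At 5 days 18 were higher and 9 were lower than in basal culture, where 16.9% and 18.5% of all genes were, and the lists' median difference was 0.13 against 0.01 over all genes. These shares of all genes also stand beside the 5 day counts of each list below. With 1 array left out the number higher ran from 13 to 20 and the number lower from 4 to 11, and without both arrays that stand apart they were 23 and 14. Of the 27 genes called, 17 were called under each of these 13 omissions and 10 were not. At 1 day 3 of the 53 were higher and 2 were lower, where 5.25% and 8.80% of all genes were. Both counts changed in either direction when arrays were left out. Between the lines at 5 days limma called 0 of the 53, with 7 at an unadjusted p under 0.05, where 0.247% of all genes were called. That count rose without both arrays that stand apart.

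In ferric reduction and uptake 1 of 9 tested genes was higher at 5 days and 2 were lower. Slc39a14, a transporter that takes up iron not bound to transferrin, was higher by 1.77 ± 0.24 (adjusted p = 0.000653), with 10.77, 11.29, 10.86 and 10.52 at 5 days against 9.89, 8.73, 8.86 and 8.87 in basal culture. The groups did not overlap. Steap1 was lower by 2.84 ± 0.35 (adjusted p = 0.000388), and the metalloreductase gene Steap2 was lower by 1.83 ± 0.42 (adjusted p = 0.00816). Steap3, the reductase of the transferrin endosome in erythroid cells, was called higher at 1 day, by 0.58 ± 0.16 (adjusted p = 0.04).

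Storage and cytosolic handling had 1 higher and 2 lower of 4. Ncoa4, which delivers ferritin to the lysosome, was higher by 1.16 ± 0.23 (adjusted p = 0.00385) and was already called at 1 day, by 0.89 ± 0.23 (adjusted p = 0.0329). The iron chaperone genes Pcbp2 and Pcbp1 were lower by 0.47 ± 0.08 and 0.29 ± 0.09, and the call of Pcbp1 was lost in 6 of 13 omissions of arrays. In export and oxidation 2 of 5 were higher and 0 were lower. Abcg2, which exports haem and other compounds, was higher by 1.92 ± 0.20 (adjusted p = 0.000167) and the haem exporter gene Flvcr1 by 1.19 ± 0.25 (adjusted p = 0.00588). Ceruloplasmin (Cp), the plasma counterpart of hephaestin, differed by 0.38 ± 0.79 and was not called (adjusted p = 0.797), with values from 7.53 to 10.1 at 5 days and from 6.87 to 10.8 in basal culture.

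Among 5 tested genes of iron sensing 4 were higher at 5 days and 0 were lower, in a comparison that called 16.9% of all genes higher. Aco1, which encodes iron regulatory protein 1, was higher by 1.11 ± 0.21 (adjusted p = 0.0029), with 12.37, 12.25, 11.22 and 11.33 at 5 days against 10.83, 11.24, 10.23 and 10.42 in basal culture. The lowest array at 5 days, from 14B3, lay just under the highest basal array, from 9A1, so these groups overlapped. Ireb2, for iron regulatory protein 2, was higher by 0.74 ± 0.14 (adjusted p = 0.0028). Epas1, the hypoxia-inducible factor with an iron-responsive element in its message, was higher by 2.20 ± 0.74 (adjusted p = 0.0451), by 3.24 without basal 9A1 replicate 1 and 1.15 without replicate 2, a call lost in 10 of 13 omissions of arrays. Skp1a, of a ubiquitin ligase that acts on iron regulatory proteins, was higher by 0.27 ± 0.08 (adjusted p = 0.0346), a call lost in 9 of 13. The calls of Aco1 and Ireb2 were lost in 0.

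The control of hepcidin held 15 tested genes, 4 of them higher at 5 days and 3 lower. Bmp2, a ligand that drives hepcidin in liver, was higher by 1.83 ± 0.59 (adjusted p = 0.0387), with 9.21, 9.45, 8.56 and 8.56 at 5 days against 9.88, 7.23, 5.41 and 5.95 in basal culture. Basal 9A1 replicate 1 was above all arrays at 5 days. Without it Bmp2 was higher by 2.49, without replicate 2 the difference was 1.17 (adjusted p = 0.091), and the call was lost in 9 of 13 omissions. The receptor gene Acvr2a was higher by 1.27 ± 0.28 and Neo1, a partner of hemojuvelin, by 1.26 ± 0.29. Tmprss6, the protease that dampens this pathway, was the other gene that was higher, while the receptor gene Acvr1, the haemochromatosis gene Hfe and Atoh8 were lower by 1.12 ± 0.31, 0.67 ± 0.20 and 0.70 ± 0.24. The calls of Tmprss6, Acvr1, Hfe and Atoh8 were lost in 8, 5, 6 and 8 of 13 omissions, and those of Acvr2a and Neo1 in 0. Members of this list thus differed in both directions, and Id1, a target of BMP signals, was lower at 1 day by 0.49 ± 0.10 (adjusted p = 0.0127).

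For haem and haemoglobin 3 of 9 tested genes were higher and 1 was lower. Hpx, the plasma haem carrier hemopexin made by hepatocytes, was 15.5-fold higher, by 3.95 ± 0.55 (adjusted p = 0.000706). Its levels were 12.90, 12.03, 12.65 and 12.53 at 5 days, against 10.72, 7.65, 7.61 and 8.32 in basal culture, with no overlap. The haem and folate transporter gene Slc46a1 was higher by 3.03 ± 0.58 (adjusted p = 0.00324), and Lrp1, the hemopexin receptor, by 1.41 ± 0.44 (adjusted p = 0.0329), a call lost in 8 of 13 omissions. Blvra, a biliverdin reductase, was lower by 0.68 ± 0.13 (adjusted p = 0.00352). Of 6 mitochondrial iron genes 3 were higher and 1 was lower. The mitoferrin genes Slc25a37 and Slc25a28, which import iron into mitochondria, were higher by 1.31 ± 0.21 and 0.99 ± 0.14, and the scaffold gene Iscu by 0.87 ± 0.12. Glrx5, of iron-sulfur cluster assembly, was lower by 0.30 ± 0.10, a call lost in 9 of 13 omissions.

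**Figure D5:**
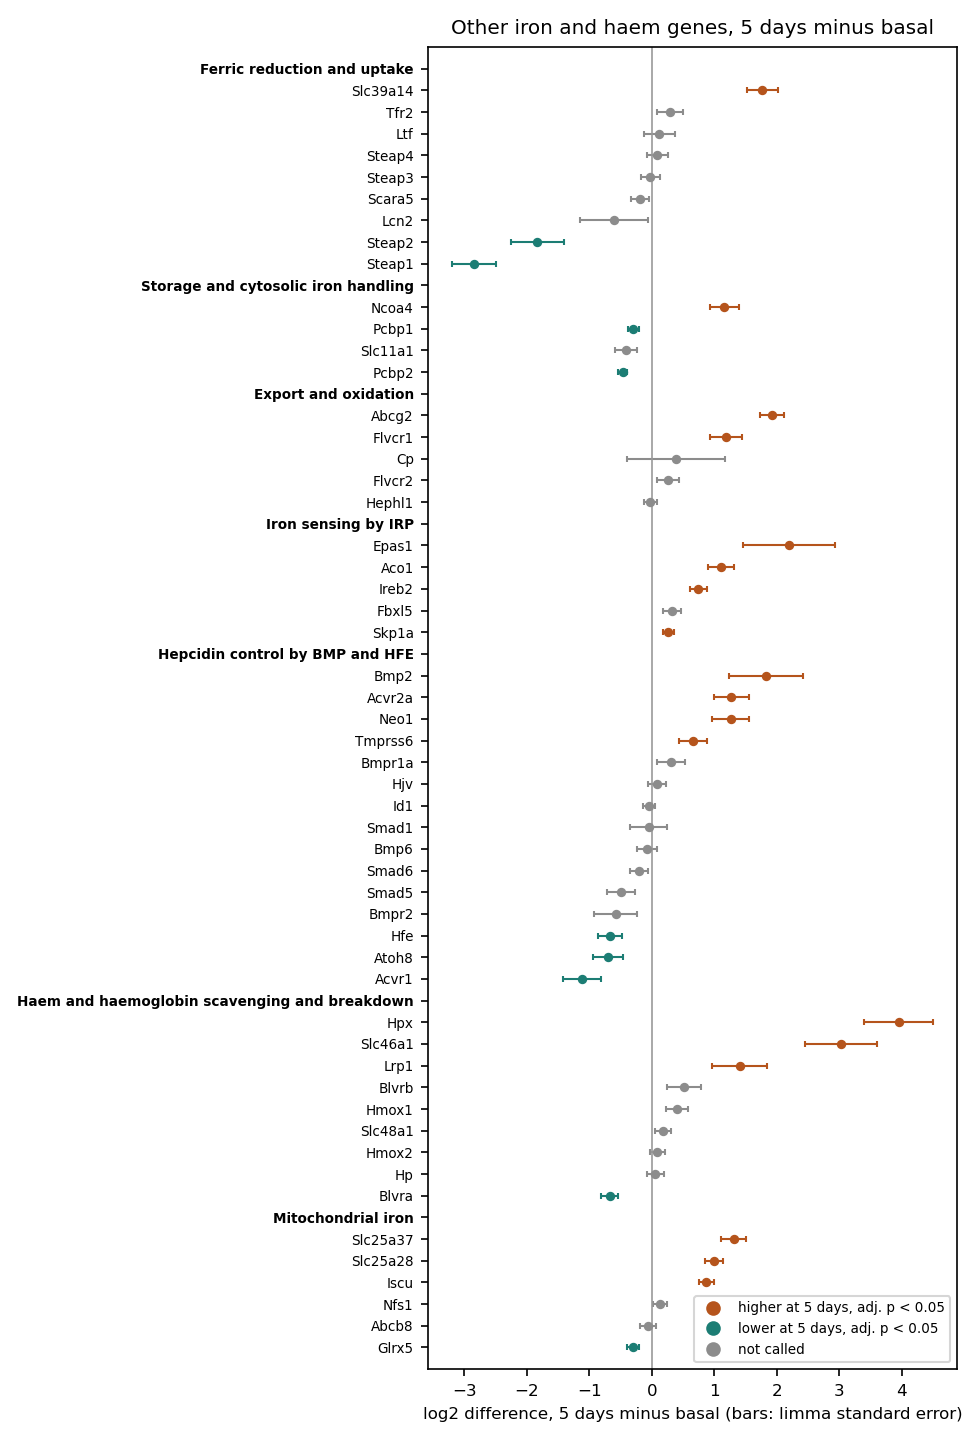
Difference in log2 level between 5 days and basal culture (horizontal axis), with the limma standard error, for the 53 tested genes of the 7 further iron lists, one row each under its list name. Orange points mark the 18 genes called higher, green points the 9 called lower and grey points the genes not called; Hpx at 3.95 is farthest right and Steap1 at -2.84 farthest left.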

How the data were processed

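RNA of 12 cultures was hybridised to Affymetrix whole-genome mouse arrays. Per the submitters' processing notes, R 2.3.1 and RMA were used to make the log2 levels that the authors deposited. RMA normalises arrays against each other, so differences in total RNA are not seen; the deposited probe set values still had array medians of 6.09 to 6.24 and SDs of 2.13 to 2.33. The table held 45101 probe sets and 0 unmapped columns. The 64 controls, 932 probe sets with several genes and 9160 with none were left out of the tests over genes, and 34945 had 1 gene (34741 with an entry in RefSeq GRCm38.p6). Limma over probe sets also took in those with several genes. The probe set with the highest mean stood for each of 18193 genes.

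A limma 3.58.1 model (R 4.3.3) with 6 group means and a variance trend was fitted to the 12 arrays, with Benjamini-Hochberg adjusted p under 0.05 over 15781 genes with a level of at least 5 on 2 arrays. Precision is limited by the number of arrays. Members and lists were chosen with earlier results of these data known. The naming rule gives all members, up to 3 called genes with the largest 5 day difference per further list, and the 3 genes most correlated with Meltf and Tfrc; others named here were chosen after their values were seen. Of the further lists, Slc39a8, Ftmt and Cd163 were under the floor, and Ftl1 and Erfe had no probe set of their own; some genes are not reported here. Replicate numbers were not used as pairs: the labels tie them to nothing shared, and deviations of same-numbered arrays correlated at -0.30 to 0.50 over 15 pairs of groups. Some shared structure is not excluded. Alternatives were other filters, probe set rules, normalisations, weights, variance models, a replicate block, each line alone, and arrays left out.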

Additional observations from a re-analysis of the deposited data

Results flagged for a closer look

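Of 27 sets of 4 arrays (9 genes in 3 cultures), 2 held an array whose gap to the nearest of the others, divided by the range, passed the 95% critical value of 0.829; chance gives about 1 in 20. In 1 day culture Tfrc stood at 11.42 on 9A1 replicate 1, where the nearest array had 12.25 (gap over range 0.982). In basal culture Heph stood at 5.97 on 9A1 replicate 1, where the nearest array had 3.91 (0.954), and this is the array with high hepatocyte and enterocyte markers.

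The response of Meltf at 5 days differed between the lines by 2.44 (adjusted p = 0.0441 by limma's interaction test), higher on both 9A1 arrays and on neither 14B3 array. Leaving out basal 9A1 replicate 1 gave 2.31 (adjusted p = 0.0661).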

How the results depend on the processing

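For 22 pairs of gene and comparison the alternatives gave 512 values, of which 433 kept direction and side of the threshold, 51 lost the call, 26 gained it and 2 turned sign. The turned values were those of Meltf in 14B3 alone, -0.16 for 5 days against basal culture and -0.042 for 5 days against 1 day. The number called among all genes also moved with the alternative, so the member counts that follow are not a result about the iron genes alone. Of the 8 genes, 1 was called at 1 day (Slc11a2, lower) with a floor of 6, median centring or no variance trend. In 14B3 alone 4 were called at 1 day against basal culture. Slc40a1, Tfrc and Fth1 were higher, with differences of 2.43, 0.54 and 0.24, and Slc11a2 was lower, at -0.61. In 9A1 alone 2 were called between 5 days and basal culture (Heph and Meltf) and 1 between 5 days and 1 day (Heph). The shares of all genes called in each line alone are not given here, so these counts have no background to be read against. Between the lines over the cultures 0 were called with array weights or a replicate block. Without both arrays that stand apart Tfrc differed between the lines at 1 day by -0.84. There 9A1 rests on replicate 1 alone, the array at 11.42. The 5 day interaction called 0 with a floor of 6, no variance trend or a replicate block. It also called 0 with the next highest probe set. There Meltf, which has 1 probe set, kept its values, and the fit was over probe sets rather than genes. Besides these counts, the replicate block ended the call of Slc40a1 between 5 days and 1 day (adjusted p = 0.0624) and changed no other.

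With 1 array left out in turn, the number called ran from 0 to 2 at 1 day, 4 to 6 at 5 days against basal culture, 4 to 5 against 1 day, 0 to 4 between the lines over the cultures, 0 to 3 in basal culture, 0 to 0 at 1 day, 1 to 2 at 5 days, and 0 to 2 and 0 to 3 for the 1 day and 5 day interactions. The further iron lists were run without arrays as an alternative chosen after seeing the data. The causes were not tested. An arm left with 1 array was assumed to vary like the other groups.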
